A study of Mus musculus with 10 samples.

Results

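The p53 target genes described here are Cdkn1a, Mdm2, Ccng1, Trp53inp1, Bbc3, Bax, Aen, Eda2r, Phlda3 and Zmat3. They were chosen by name as arrest and damage response targets of p53, with earlier results of these data known. They are 10 of the 32830 genes in the deposited table, and all 10 passed the filter on low values used for testing. RNA was sequenced from tumour tissue of a mouse ovarian cancer model. Every tumour is labelled WT in genotype and ovarian cancer in tissue. The groups were PBS (2 tumours), a CDK4/6 inhibitor labelled CDK4/6i (3 tumours), a PD-1 antibody (2 tumours) and inhibitor plus antibody, called the combination (3 tumours). The titles were used to assign the combination, as the treatment labels of its replicates 2 and 3 write PD2 and PD3 antibody. The drug's full name, its dose, the time of sampling, the mouse strain, the age of the animals and the tumour cells implanted or induced are not stated in the labels. Nothing says whether each library came from a separate animal, so p-values measure only how far these samples spread, which may be technical.

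The transcription factor p53 is held low by the ubiquitin ligase Mdm2 and is stabilised when DNA is damaged or growth signals go awry. It then binds DNA at pairs of 10-base half-sites and switches on genes for cell cycle arrest, DNA repair and cell death, and also Mdm2 itself, which closes a feedback loop. Its arrest arm acts largely through p21, the product of Cdkn1a, which inhibits cyclin-dependent kinases upstream of the RB protein. CDK4/6 inhibitors act on the same kinase step. The gene for p53 is often mutated in human high-grade serous ovarian cancer. The label WT does not say whether p53 itself was intact in these tumour cells.

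Because p53 recognises its targets by sequence, the promoters of the 10 genes were searched for the half-site in RefSeq windows of GRCm38.p6, from 250 bases before to 50 bases after each annotated start. The motif searched was the 10-base p53 half-site consensus. It reads the same on both strands, so 1 search covers both. Windows were given for 8 of the genes, and half-sites were found for 5 of these genes. By window, 6 of the 12 searched for members (50%) held a half-site, and the 2 Aen windows hold the same one. Trp53inp1 and Zmat3 had no window. Each line below shows 50 bases around 1 half-site, 5′ to 3′ on the gene's strand, with the half-site in capitals.
Cdkn1a: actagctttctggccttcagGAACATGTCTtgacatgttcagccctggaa
Mdm2: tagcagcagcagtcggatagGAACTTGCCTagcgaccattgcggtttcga
Aen: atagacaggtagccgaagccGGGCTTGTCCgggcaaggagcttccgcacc
Ccng1: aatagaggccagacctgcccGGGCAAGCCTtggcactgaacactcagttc
Bax: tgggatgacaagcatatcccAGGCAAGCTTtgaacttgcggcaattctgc
The stretches lie at chr17:29090908-29090957 (plus strand) for Cdkn1a, chr10:117710915-117710964 (minus) for Mdm2, chr7:78895917-78895966 (plus) for Aen, chr11:40755442-40755491 (minus) for Ccng1 and chr7:45467070-45467119 (minus) for Bax. Cdkn1a was the 1 member with a window that held a full site, meaning 2 half-sites no more than 13 bases apart. Its line above marks the half-site at position -51 from the start and not the other, at -73. The second Cdkn1a window held no half-site. Among all 32851 RefSeq promoter windows, 8.36% held a half-site and 0.0731% held a full site. Bbc3, Phlda3 and Eda2r had no match in their windows, which says only that these letters are not there. A match is a stretch of letters and not evidence of binding in these tumours.

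The 10 libraries held from 25132208 to 36260856 reads assigned to genes. Keratin and mesothelial markers were present in every tumour, with Krt8 at 118 to 179 RPKM and Wt1 at 33.1 to 53.3 RPKM, while Pax8 was at or below 0.137 RPKM in 9 libraries and at 1.10 RPKM in combination replicate 1. RPKM is a read count divided by transcript length and library size. Skeletal muscle transcripts set 3 libraries apart. A list of 12 muscle genes took 9.01% and 8.11% of reads in inhibitor replicates 1 and 2 and 9.14% in combination replicate 1, against 0.00159% to 1.39% in the other 7. Exact 95% binomial intervals on these shares are narrow, for example 8.10% to 8.12% for inhibitor replicate 2, and cover counting error only. The 3 are called muscle-rich below, and both treatment groups given the inhibitor contain at least 1 of them. In bulk tissue, fewer cells of a type and less RNA per cell cannot be told apart.

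Among the arrest and feedback genes, Cdkn1a, which encodes the kinase inhibitor p21, lies on chromosome 17 at 29090979 to 29100722 (GRCm38, plus strand). It was at 6.55 and 3.90 RPKM in PBS tumours, 3.66, 5.05 and 13.6 RPKM under the inhibitor, 3.21 and 3.19 RPKM under the antibody, and 4.15, 3.71 and 5.43 RPKM in the combination. Inhibitor replicate 3 held the highest level of any tumour, and the other 2 inhibitor tumours lay within or below the PBS range. The antibody tumours were the 2 lowest of all 10, and the highest level was 4.25-fold the lowest. These values rest on 220 to 869 reads.

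Mdm2, the ligase that marks p53 for degradation, lies on chromosome 10 at 117688888 to 117710758 (minus strand). Its levels were 13.4 and 17.5 RPKM in PBS, 9.26, 10.7 and 20.4 RPKM under the inhibitor, 12.3 and 13.2 RPKM under the antibody, and 11.3, 18.1 and 17.9 RPKM in the combination. As with Cdkn1a, inhibitor replicate 3 was highest, while its 2 group mates were the lowest of all tumours. Ccng1, a cyclin that directs a phosphatase to Mdm2, lies on chromosome 11 at 40748552 to 40755311 (minus strand). It was at 19.0 and 27.2 RPKM in PBS, 31.8, 30.1 and 19.1 RPKM under the inhibitor, 19.4 and 23.9 RPKM under the antibody, and 47.0, 21.3 and 27.7 RPKM in the combination. Here the order within the inhibitor group was the opposite, with replicate 3 lowest, and the treated ranges overlapped the PBS range in all 3 cases.

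Trp53inp1, a nuclear and autophagy-linked protein that promotes p53 phosphorylation, lies on chromosome 4 at 11156431 to 11174379 (plus strand). It was at 5.83 and 6.43 RPKM in PBS, 3.49, 3.90 and 4.90 RPKM under the inhibitor, 5.71 and 6.63 RPKM under the antibody, and 4.07, 6.58 and 6.12 RPKM in the combination. All 3 inhibitor tumours lay below both PBS tumours, while 2 of the 3 combination tumours, at 6.58 and 6.12 RPKM, lay within or above the PBS range.

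**Figure D1:**
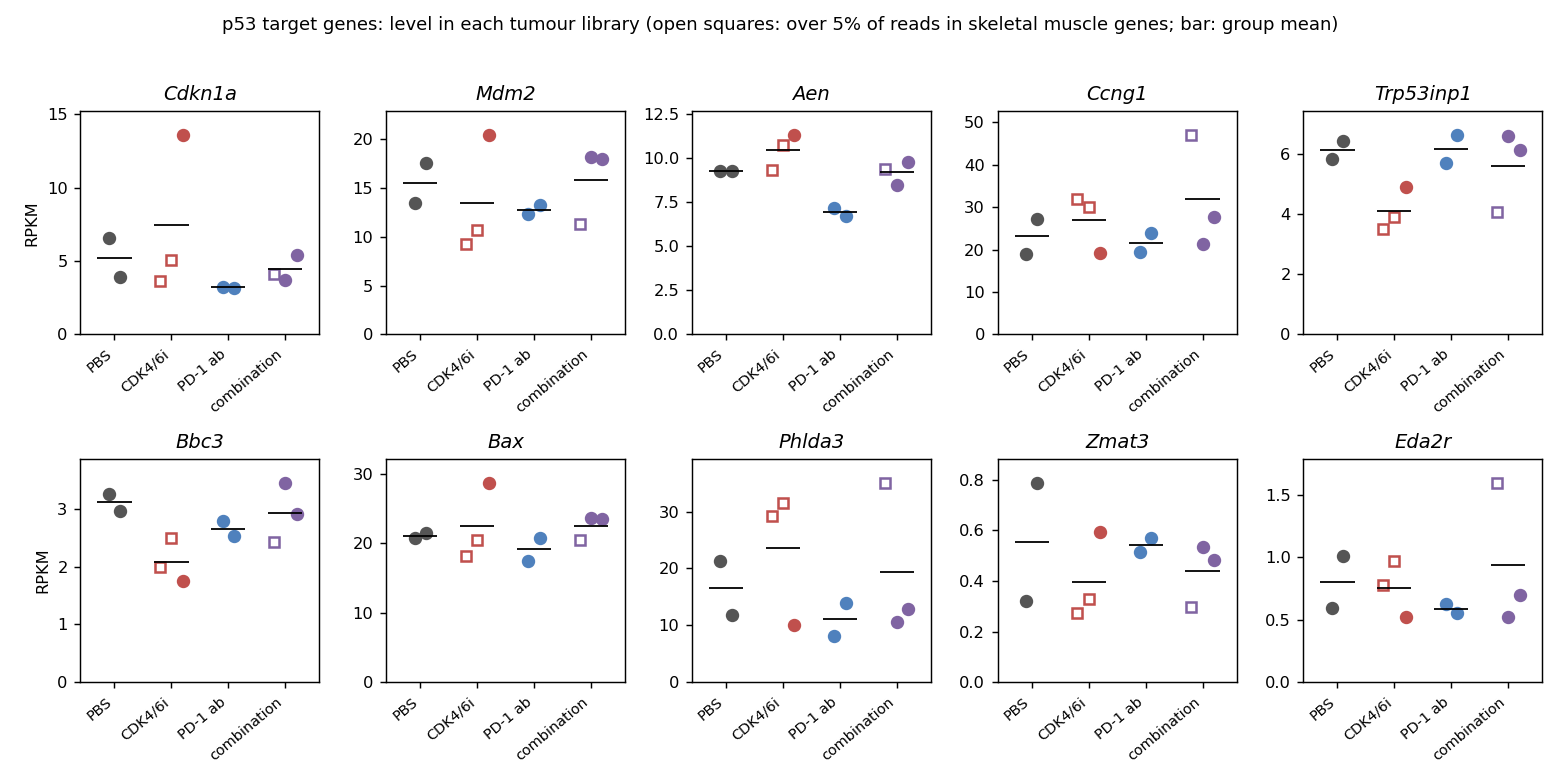
Expression of the 10 p53 target genes in every tumour, in RPKM on a separate axis for each gene that starts at 0. Points are tumours, bars are group means, and open squares mark the muscle-rich libraries. Cdkn1a reaches 13.6 RPKM in inhibitor replicate 3, and Phlda3 stands at 29.2 to 35.1 RPKM in the 3 muscle-rich libraries against 8.08 to 21.4 RPKM elsewhere.

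Among the cell death genes, Bbc3 encodes PUMA, a BH3-only protein that frees Bax to act, and lies on chromosome 7 at 16308393 to 16318205 (plus strand). It was at 3.26 and 2.96 RPKM in PBS, 2.00, 2.49 and 1.75 RPKM under the inhibitor, 2.78 and 2.53 RPKM under the antibody, and 2.42, 3.45 and 2.90 RPKM in the combination. The inhibitor tumours were all below both PBS tumours, and the antibody tumours were too. Unlike for Cdkn1a, inhibitor replicate 3 was the lowest tumour of all.

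Bax, which forms pores in the outer mitochondrial membrane, lies on chromosome 7 at 45461697 to 45466898 (minus strand). It varied least of the 10 members, with a highest to lowest ratio of 1.64. Its levels were 20.7 and 21.4 RPKM in PBS, 18.2, 20.4 and 28.7 RPKM under the inhibitor, 17.5 and 20.8 RPKM under the antibody, and 20.4, 23.6 and 23.5 RPKM in the combination. Inhibitor replicate 3 was again highest. Of the Bax exon bases, 12.2% are shared with RP23-218K15.5 on the same strand, which averaged 37.9 RPKM against 21.5 RPKM for Bax. How reads in the shared bases were assigned is not stated, so the size of any error in the Bax values is not known. The exons of the other 9 members overlap no other gene in the annotation.

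Aen encodes a p53-induced nuclease that cuts DNA during cell death, and lies on chromosome 7 at 78895854 to 78911209 (plus strand). Its levels were 9.24 and 9.23 RPKM in PBS, 9.29, 10.7 and 11.3 RPKM under the inhibitor, 7.18 and 6.68 RPKM under the antibody, and 9.36, 8.44 and 9.76 RPKM in the combination. The antibody tumours were the 2 lowest of all 10, and the inhibitor tumours all lay above PBS, the lowest by a margin of 9.29 against 9.24 RPKM. Eda2r, a receptor of the TNF receptor family for ectodysplasin A2, lies on the X chromosome at 97333840 to 97377216 (minus strand). It was low throughout, at 0.594 and 1.01 RPKM in PBS, 0.779, 0.970 and 0.519 RPKM under the inhibitor, 0.625 and 0.555 RPKM under the antibody, and 1.60, 0.525 and 0.698 RPKM in the combination. Its highest level was in combination replicate 1, and every treated range overlapped the PBS range.

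Phlda3 encodes a pleckstrin-homology protein that competes with Akt for membrane lipids, and lies on chromosome 1 at 135766119 to 135769136 (plus strand). It was at 21.4 and 11.9 RPKM in PBS, 29.2, 31.5 and 10.1 RPKM under the inhibitor, 8.08 and 14.0 RPKM under the antibody, and 35.1, 10.5 and 12.8 RPKM in the combination. Its high values were the 3 muscle-rich libraries, and its highest to lowest ratio of 4.35 was the widest of the 10 members. Zmat3, a zinc-finger RNA-binding protein, lies on chromosome 3 at 32334792 to 32366014 (minus strand). It was the lowest member on the RPKM scale, at 0.320 and 0.789 RPKM in PBS, 0.272, 0.330 and 0.592 RPKM under the inhibitor, 0.516 and 0.572 RPKM under the antibody, and 0.299, 0.536 and 0.482 RPKM in the combination, from 84 to 313 reads. Its highest level was in PBS replicate 2, and every treated range overlapped the PBS range.

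The comparison of the CDK4/6 inhibitor with PBS asks what the inhibitor alone did. None of the 10 members passed limma's test at an adjusted p of 0.05, where 0% of the 19368 genes tested passed. Bbc3 averaged 2.08 ± 0.37 RPKM (SD, n = 3) against 3.11 ± 0.21 RPKM (SD, n = 2) in PBS, a log2 fold change of -0.49 with a standard error of 0.20. Its unadjusted p by limma was 0.0359 and its adjusted p 0.844. Trp53inp1 averaged 4.10 ± 0.73 RPKM (SD, n = 3) against 6.13 ± 0.42 RPKM (SD, n = 2), a log2 fold change of -0.54 with a standard error of 0.23, an unadjusted limma p of 0.0470 and an adjusted p of 0.844. These were the 2 members with an unadjusted p under 0.05, both lower, where 5.35% of all genes reached that level and 5.03% did so in the lower direction. The voom test on recovered reads gave the same 2 members at that level and also called 0 genes after adjustment.

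Cdkn1a had an inhibitor mean of 7.43 ± 5.4 RPKM (SD, n = 3) against 5.23 ± 1.9 RPKM (SD, n = 2) in PBS. The log2 fold change was 0.30 with a 95% interval from -0.77 to 1.38 and an adjusted p of 0.876 by limma. Without inhibitor replicate 3 it was -0.21 and without PBS replicate 2 it was -0.04, so the data give it no direction. Groups did not overlap for 3 members, namely Bbc3 and Trp53inp1, which were lower under the inhibitor, and Aen, which was higher. Of all genes, 17.3% were lower without overlap and 1.71% higher. After median-ratio scaling 1 member was lower without overlap, Trp53inp1, and 2 were higher, Aen and Bax, beside 7.0% and 6.87% of all genes. Bbc3 then overlapped, at 1.68 to 2.75 scaled RPKM under the inhibitor against 2.65 and 3.03 in PBS. Over the 10 members the median log2 fold change was 0.01, with 5 above 0, beside a median of -0.20 and 23.4% above 0 over all genes tested.

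**Figure D2:**
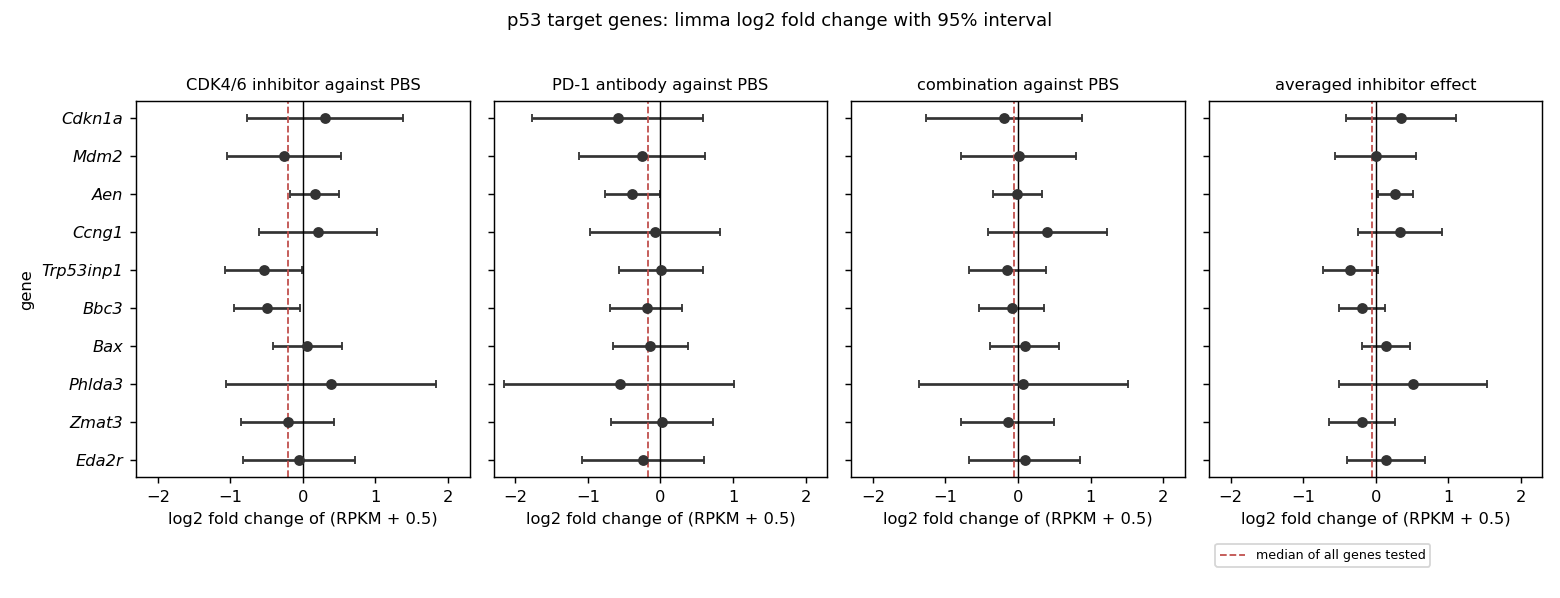
Log2 fold changes of the 10 genes in the 3 comparisons with PBS and the averaged inhibitor effect, on the log2(RPKM + 0.5) scale, with 95% limma intervals as horizontal lines and the median of all genes tested as a dashed line. The intervals of Bbc3 and Trp53inp1 under the inhibitor end at -0.04 and -0.01, and that of Cdkn1a runs from -0.77 to 1.38.

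Under the PD-1 antibody alone, again none of the 10 members passed (limma, 0% of all genes passed). Aen averaged 6.93 ± 0.35 RPKM against 9.24 ± 0.0056 RPKM in PBS (SD, n = 2 in each group). Its log2 fold change was -0.39 with a standard error of 0.16, and its limma p was 0.0435 before and 0.565 after adjustment. It was the 1 member with an unadjusted p under 0.05, as it also was by voom, where 8.65% of all genes reached that level by limma and 7.24% did so in the lower direction. Cdkn1a averaged 3.20 ± 0.013 RPKM (SD, n = 2), a log2 fold change of -0.59 whose 95% interval ran from -1.77 to 0.59. Both antibody tumours were below both PBS tumours for Cdkn1a, Mdm2, Bbc3 and Aen. With 2 tumours a side, 34.8% of all genes showed that order. After median-ratio scaling only Aen of these 4 kept it, beside 20.4% of all genes, while Cdkn1a, Mdm2 and Bbc3 overlapped, and Bax and Trp53inp1 were higher without overlap, as were 18.4% of all genes. The members' median was -0.22, with 2 of 10 above 0, beside -0.17 and 31.1% for all genes. The antibody tumours also held the most exocrine pancreas RNA, at 3.70% and 1.44% of reads against at most 0.592% elsewhere, and its part in these values was not tested.

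In the combination against PBS, log2 fold changes of the members ran from -0.19 for Cdkn1a to 0.40 for Ccng1, and all 10 adjusted p-values by limma were 1.0. Of all genes 0% passed, and 3.54% had an unadjusted p under 0.05. No member had an unadjusted limma p under 0.05, none did by voom, and the groups overlapped for all 10, where 15.9% of genes had groups that did not overlap. After median-ratio scaling Bax was higher without overlap, as were 8.0% of all genes. The 95% interval for Cdkn1a, from -1.27 to 0.88, includes sizeable decreases and increases. The median was 0.00 with 5 members above 0, beside -0.05 and 42.0% for all genes. The 3 comparisons with PBS share the same 2 PBS tumours, so they are not independent of each other. Those 2 tumours also carried RNA of other tissues, with adipocyte markers at 0.283% of reads in PBS replicate 1 and liver markers at 0.630% in PBS replicate 2, each the highest share of the 10 libraries. The part of that RNA in the members' values was not tested.

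Adding the inhibitor to the antibody can be read from the combination against the antibody alone. Aen averaged 9.19 ± 0.68 RPKM (SD, n = 3) in the combination and 6.93 ± 0.35 RPKM (SD, n = 2) under the antibody, a log2 fold change of 0.38 with a standard error of 0.15. Its limma p was 0.0336 before and 0.891 after adjustment, where 5.55% of genes reached the unadjusted level and 4.02% were higher at it. It was the 1 member under 0.05 before adjustment, also by voom, and 0% of genes passed after it. Cdkn1a was higher in every combination tumour than in either antibody tumour, with a log2 fold change of 0.40, a standard error of 0.47 and an adjusted p of 1.0 by limma. Aen and Cdkn1a were the 2 members whose groups did not overlap, both higher, beside 21.5% of all genes. After median-ratio scaling both overlapped, with combination replicate 2 at 7.37 scaled RPKM for Aen and 3.24 for Cdkn1a against 8.02 and 3.59 in antibody replicate 1. On that scale Bax was higher without overlap and Zmat3 and Trp53inp1 lower, beside 14.9% and 13% of all genes. Aen in this comparison and in the antibody comparison rests on the same 2 antibody tumours. Before scaling the members' median was 0.30, with 8 of 10 above 0, beside 0.12 and 67.0% for all genes.

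Adding the antibody to the inhibitor was read from the combination against the inhibitor alone. Bbc3 had a log2 fold change of 0.41 with a standard error of 0.18, with a limma p of 0.0495 before and 0.621 after adjustment, where 8.03% of genes reached the unadjusted level and 6.75% were higher at it. It was the 1 member at that level by limma, and 0% of genes passed after adjustment. By voom no member had an unadjusted p under 0.05 here. Trp53inp1 followed at 0.39 with a standard error of 0.21 and an adjusted limma p of 0.647. The groups overlapped for all 10 members, and 10.9% of genes had groups that did not. After median-ratio scaling Aen was lower without overlap, as were 7.09% of all genes. Before scaling the members' median was 0.11, with 7 of 10 above 0, beside 0.15 and 68.6% for all genes.

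Averaged over tumours with and without the antibody, the inhibitor effect on Aen was 0.27 with a standard error of 0.11 on the log2 scale. Its limma p was 0.0332 before and 0.966 after adjustment, and it was the 1 member under 0.05 before adjustment, where 4.91% of genes reached that level and 1.64% were higher at it. Phlda3 had an averaged effect of 0.51 with a standard error of 0.45, and without the 3 muscle-rich libraries it was -0.26. Mdm2 had an averaged effect of 0.00 with a standard error of 0.24. The test of whether the inhibitor acted differently with the antibody passed for none of the members by limma, where 0% of genes passed. No member had an unadjusted p under 0.05, by limma or by voom, where 5.62% of genes did by limma. Bbc3 was nearest, at 0.60 with a standard error of 0.28 (unadjusted p = 0.0626, adjusted p = 0.777). All 10 members had an interaction above 0, with a median of 0.26, beside 83.3% and a median of 0.33 over all genes. After median-ratio scaling 4 members were above 0, with a median of -0.10, beside an all-gene median of 0.02.

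Member levels were also set beside the muscle content of the libraries. Phlda3 was at 29.2 to 35.1 RPKM in the 3 muscle-rich libraries and at 8.08 to 21.4 RPKM in the other 7. Ccng1 was at 30.1 to 47.0 RPKM in them and at 19.0 to 27.7 RPKM in the others. Both genes were therefore higher in each muscle-rich library than in any other, where 3.95% of all genes were. Mdm2, at 9.26 to 11.3 RPKM against 12.3 to 20.4 RPKM, and Trp53inp1, at 3.49 to 4.07 RPKM against 4.90 to 6.63 RPKM, were lower in each of them, as were 18.1% of all genes. After scaling libraries to the median ratio over genes, the same 4 genes kept their order and Eda2r joined the higher ones, at 0.932 to 1.74 against 0.459 to 0.908 scaled RPKM. On that scale 9.01% of all genes were higher in each muscle-rich library and 6.98% lower. The libraries were chosen by their muscle reads, so no test was made, and the part of muscle tissue in these levels was not tested. Leukocyte marker RNA was at 0.0145%, 0.0149% and 0.0256% of reads in the muscle-rich libraries, 3 of the 4 lowest shares among the 10 tumours. Combination replicate 1, the highest library for Phlda3, Ccng1 and Eda2r, also held the most Krt7 and Epcam, at 12.7 and 27.8 RPKM. The part of epithelial RNA in the members' levels was not tested.

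**Figure D3:**
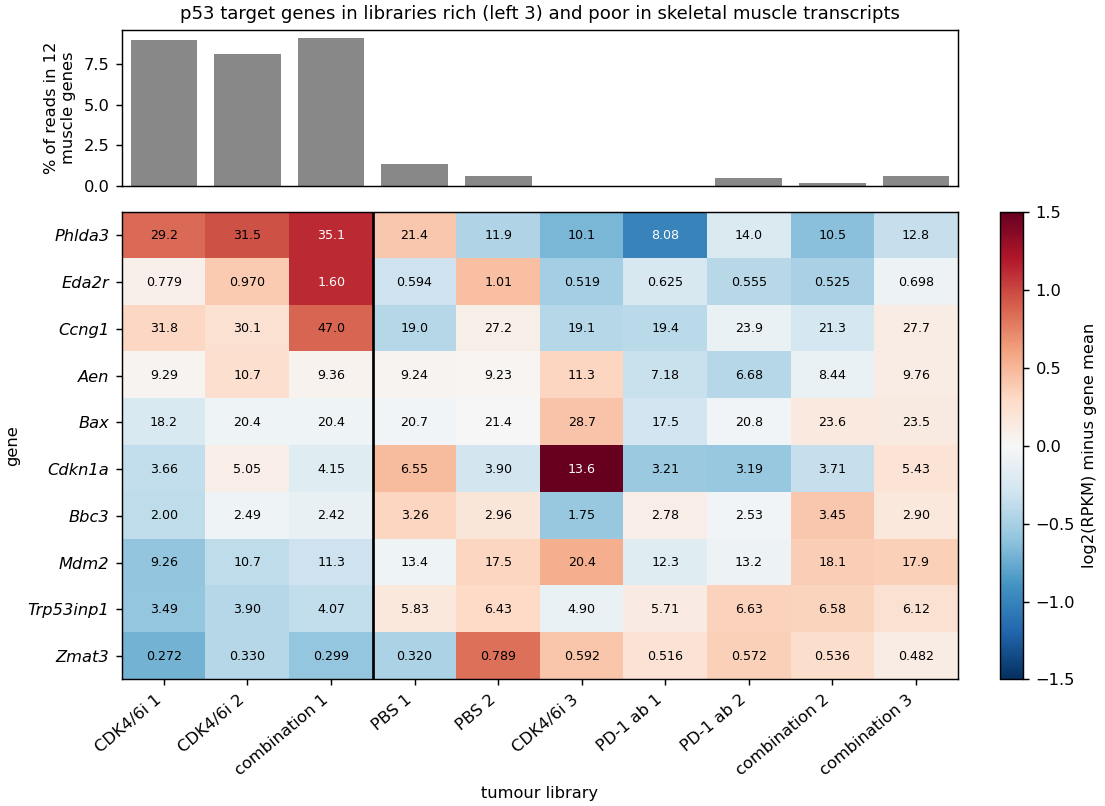
Levels of the 10 p53 target genes in each tumour as log2(RPKM) minus the gene's mean, with the RPKM written in each cell, below bars of the share of reads from 12 skeletal muscle genes. The 3 muscle-rich libraries are on the left. They are at 8.11% to 9.14% and show high Phlda3 and Ccng1 and low Mdm2 and Trp53inp1.

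Leaving out the 3 muscle-rich libraries leaves inhibitor replicate 3 as the lone inhibitor tumour, which is then assumed to vary like the other groups. In that fit the inhibitor comparison gave a log2 fold change of 1.34 for Cdkn1a, with an adjusted p of 0.206 by limma, 0.40 for Mdm2, -0.64 for Phlda3, -0.25 for Ccng1, -0.29 for Trp53inp1 and -0.68 for Bbc3. The signs of Mdm2, Phlda3, Ccng1 and Zmat3 were opposite to those over all tumours. Inhibitor replicate 3 had the highest level of 4 members, Cdkn1a, Mdm2, Aen and Bax, and the lowest of 2, Bbc3 and Eda2r. Over all genes tested, that library was highest for 18.3% and lowest for 12.2%. It also held the most of 2 myeloid markers. Itgam was at 35.8 RPKM against at most 12.5 RPKM in the others, and S100a8 at 6.01 RPKM against at most 1.75 RPKM. Cd68, Csf1r and Ptprc were instead higher in combination replicates 2 and 3, with Csf1r at 28.7 and 29.6 RPKM against 18.5 RPKM. The whole leukocyte list took 0.0592% of reads in inhibitor replicate 3, against 0.0705% and 0.0736% in those 2. The part of these markers in the members' levels was not tested. The members thus did not move as 1 block in inhibitor replicate 3.

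Beside the 10 members, 30 other p53 targets were read. They cover arrest (5 genes), cell death (9), DNA repair (6), and metabolism and secretion (10), and none passed limma's test in any comparison. Against PBS, 6 of 30 were above 0 under the inhibitor, 10 under the antibody and 10 in the combination, with median log2 fold changes of -0.19, -0.26 and -0.11. Of all genes tested, 23.4%, 31.1% and 42.0% were above 0, with medians of -0.20, -0.17 and -0.05. After median-ratio scaling 16, 13 and 12 of the 30 were above 0, beside 9580, 9339 and 9820 of all 19304 genes tested on that scale. Under the inhibitor the lowest p-values of these genes belonged to Sesn1, a stress-induced regulator of growth signalling, at -0.59 (SE 0.20), and Xpc, which recognises damaged DNA, at -0.53 (SE 0.18). Gadd45a, an arrest and repair gene, was at 31.8 and 25.6 RPKM in PBS, 31.8, 33.1 and 39.4 RPKM under the inhibitor, 15.0 and 15.5 RPKM under the antibody, and 29.5, 28.7 and 20.9 RPKM in the combination. Before scaling, the antibody tumours were the 2 lowest for Gadd45a as for Cdkn1a and Aen. After median-ratio scaling they remained so for Gadd45a, at 16.8 and 15.0 scaled RPKM, but not for Cdkn1a or Aen. The Gadd45a change under the antibody was -0.88 (SE 0.22), with a limma p of 0.00317 before and 0.416 after adjustment. Polk, a polymerase that copies past damage, was at -0.46 (SE 0.15) in the same comparison with an adjusted limma p of 0.535. In the combination Ercc5, a repair nuclease, was at -0.39 (SE 0.18), Gdf15, a secreted stress factor, at -0.59 (SE 0.28) and Polk at -0.27 (SE 0.14), all with an adjusted p of 1.0 by limma. The averaged inhibitor effect was 0.51 (SE 0.14) for Gadd45a, -0.36 (SE 0.14) for Sesn1 and -0.60 (SE 0.25) for Pmaip1, the BH3-only protein NOXA, with adjusted limma p-values of 0.794, 0.966 and 0.966. Ak1, an adenylate kinase abundant in muscle, was at 77.8 to 101 RPKM in the muscle-rich libraries and at 9.32 to 26.0 RPKM in the rest, the 1 gene of the 30 that was higher in each of them, while 8 were lower in each, beside 3.95% and 18.1% of all genes. After median-ratio scaling 3 were higher and 4 lower, beside 9.01% and 6.98% of all genes.

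**Figure D4:**
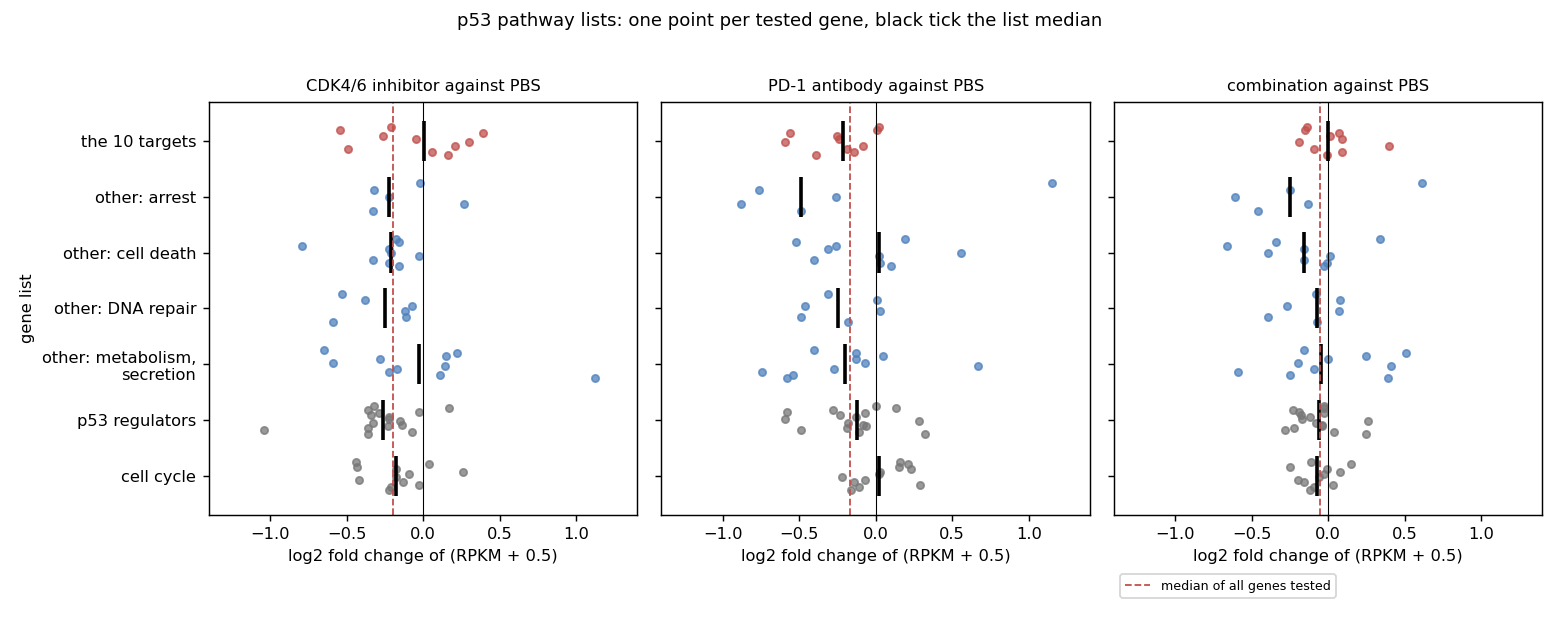
Log2 fold changes against PBS for the 10 members and for other genes of the p53 pathway, by list, on the log2(RPKM + 0.5) scale, with each point a gene each black tick a list's median and the dashed line the median of all genes tested. Under the inhibitor the member median is 0.01 beside -0.20 for all genes tested, and the p53 regulator median is -0.26, or -0.04 after median-ratio scaling.

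Of 17 p53 regulators and family genes, 16 passed the filter, Trp73 did not, and none passed the test. Trp53, which encodes p53, was at 10.5 and 8.37 RPKM in PBS, 9.58, 9.82 and 8.13 RPKM under the inhibitor, 5.69 and 6.56 RPKM under the antibody, and 7.85, 9.08 and 7.60 RPKM in the combination. The antibody tumours were the 2 lowest, with a log2 fold change of -0.58 (SE 0.19) and an adjusted limma p of 0.532. They remained the 2 lowest after median-ratio scaling, at 6.35 and 6.34 scaled RPKM. Cdkn2a, whose products hold back CDK4/6 and Mdm2, was at 1.56 and 1.62 RPKM in PBS, 0.631, 0.406 and 0.534 RPKM under the inhibitor, 0.893 and 1.10 RPKM under the antibody, and 0.721, 1.73 and 1.39 RPKM in the combination. The inhibitor tumours were the 3 lowest, at -1.04 (SE 0.27), with a limma p of 0.00463 before and 0.844 after adjustment. Mdm4, a partner of Mdm2, was at -0.22, -0.13 and -0.12 in the inhibitor, antibody and combination comparisons with PBS, and Ppm1d, a phosphatase that resets the damage response, at -0.34, -0.23 and -0.18. Of 12 cell cycle genes that p53 represses through p21, 2, 7 and 3 were above 0 in those comparisons and none passed. After median-ratio scaling 8, 11 and 5 were above 0, so the counts depended on the scaling in each comparison. Of all genes, 23.4%, 31.1% and 42.0% were above 0 before scaling, and 9580, 9339 and 9820 of 19304 after it. The proliferation marker Mki67 was at -0.43, 0.15 and -0.25, and the mitotic cyclin gene Ccnb1 at -0.42, -0.07 and -0.20.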

How the data were processed

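The authors deposited 1 table of RPKM for 32830 genes in 10 libraries with gene positions and lengths. Per the labels' protocols, TRIzol RNA was made into stranded mRNA libraries, with 2 kits named. The labels do not say which samples each kit was used for, so a kit difference between groups cannot be checked. The build was GRCm38 (mm10), per the submitters' processing notes. For the aligner, the counter and the strand setting, the labels name nothing (not given in the sources used here). RPKM times length gave whole reads for 100% of values (tolerance 1e-06), from which library totals were recovered. The columns were matched to sample titles.

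limma 3.58.1 in R 4.3.3 was fitted to log2(RPKM + 0.5) for the 19368 genes at 0.5 RPKM or more in at least 2 samples. The fit used 4 group means, 10 samples, 6 residual degrees of freedom, a trend, robust moderation and Benjamini-Hochberg adjustment over all genes tested. Fold changes on this scale understate changes of low genes. The 7 contrasts and 22 alternative settings, voom on reads among them, were run, and the procedure was tested on simulated data. Replicate pairs differed beyond sampling noise (22.0 to 483 as chi-square per gene). The members and lists were chosen with earlier results of these data known. Beside the members, genes past the threshold or, failing that, up to 3 with the lowest p in each PBS comparison and in the averaged effect were named, and Trp53, Mdm4, Ppm1d, Cdkn2a, Mki67 and Ccnb1 always.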

Additional observations from a re-analysis of the deposited data

How the results depend on the processing

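None of the 10 members passed the test in any of the 7 contrasts under any setting, and the smallest adjusted limma or voom p of a member was 0.187. Values not past the threshold and within 1 standard error of 0 were given no direction. Of 1513 member values under the alternatives, 18 moved and 7 reversed by this rule, and 107 changed sign, most of them from values that had no direction. With none past the threshold, the other 1488 do not show stability. Phlda3 in the combination against the antibody was -0.06 with the mean log2 level of the muscle genes as a covariate. Cdkn1a in the combination against the inhibitor was 0.02 without inhibitor replicate 3, within a range of -0.86 to 0.02 over replicates left out. Without the muscle-rich libraries the averaged effect was -0.04 for Ccng1 and -0.26 for Phlda3. The interaction for Aen was -0.13 under median-ratio and -0.12 under quantile scaling, and for Trp53inp1 0.00 under quantile scaling. Over all genes the interaction median was 0.33 without scaling, 0.02 under median-ratio and 0.00 under quantile scaling. The cause of the changes in the members' values was not tested.

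Median-ratio scaling moved the all-gene median of the inhibitor, antibody and combination comparisons with PBS by 0.20, 0.15 and 0.05. On that scale 6, 4 and 6 members were above 0, beside 9580, 9339 and 9820 of all 19304 genes tested. The inhibitor value was then -0.32 for Trp53inp1, -0.29 for Bbc3 and 0.39 for Aen, and the antibody value for Aen -0.22. Leaving out 1 replicate gave -0.66 to -0.44 for Trp53inp1, -0.60 to -0.40 for Bbc3 and -0.21 to 0.67 for Cdkn1a under the inhibitor.

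Counts over all genes, 0 in each contrast by limma with the settings above, changed as follows. With no filter they were 8, 23 and 7 in the inhibitor, antibody and combination comparisons with PBS and 15 in the combination against the antibody. Without the muscle-rich libraries they were 26, 51 and 1 against PBS, 1 and 5 in the combination against antibody and inhibitor, 49 for the averaged effect and 1 for the interaction. The muscle covariate gave 1 for the antibody, 7 for the combination against the antibody and 6 for the averaged effect. A pseudocount of 1 gave 1 for the antibody and 1 for the combination against the antibody, quantile scaling gave 1 for the antibody, and no trend gave 2 in both the antibody comparison and the combination against it. Fitting the compared groups alone gave 65 for the antibody. Leaving out 1 replicate gave 0 to 118, 0 to 39 and 0 to 90 against PBS, 0 to 5 and 0 to 1 for the combination against antibody and inhibitor, 0 to 101 for the averaged effect and 0 to 0 for the interaction. Where any gene was called, the highest counts came without PBS replicate 1, except for the antibody (combination replicate 1), the combination against the antibody (antibody replicate 1) and against the inhibitor (inhibitor replicate 3).

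Of same-number pairs 6 of 13 correlated over 0.1, as did 10 of 24 different-number pairs. In the PBS and antibody groups, each tumour's correlations with the other groups were equal and opposite to those of its group mate. Inhibitor replicate 1, for example, was at 0.28 and -0.28 with the PBS tumours. The counts were therefore partly fixed in advance and cannot show whether replicate numbers paired the samples. With the replicate block, limma called 1 gene for the antibody and 1 for the averaged effect, and the inhibitor values were -0.64 for Trp53inp1, -0.45 for Bbc3 and -0.03 for Cdkn1a.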
